A study of Mus musculus with 20 samples.

Results

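Bin1, Picalm, Sorl1, Abca7, Abi3, Ptk2b, Mef2c, Cd2ap, Fermt2 and Sppl2a are mouse counterparts of genes at human Alzheimer's disease risk loci that act outside the TREM2 receptor pathway of microglia. These 10 genes were taken by name, not by a threshold on a measured value, from the 39056 genes of a hippocampal RNA-seq table, and their level in each mouse is given here in CPM, read counts scaled to a common library total with TMM factors. RNA came from the left hippocampus of 20 female C57BL/6 mice about a year old, 5 in each of 4 groups, with 1 library a mouse. WT Non-Tg mice carried both copies of miR-34a (miR34a+/+) and no transgene, and KO Non-Tg mice lacked miR-34a (miR-34a-/-) and had no transgene. WT Tg-SwDI and KO Tg-SwDI mice had the same miR-34a genotypes and in addition a transgene that expresses human APP with the Swedish, Dutch and Iowa mutations under the Thy1 promoter, which is active mainly in neurons. The miR-34a deletion was constitutive and present in the whole body, so the cell type in which its loss acts is not given by the design.

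The proteins of these genes work at the steps by which cells take up, sort and break down membrane proteins and move their membrane. BIN1, PICALM and CD2AP shape or scaffold membrane at clathrin-dependent endocytosis, SORL1 and its retromer partners carry APP away from the compartments in which amyloid-β is cut, and ABCA7 moves lipid across membranes. ABI3, PYK2 (the product of Ptk2b) and kindlin-2 (the product of Fermt2) act on the actin skeleton and on integrin adhesion, MEF2C is a transcription factor of neurons and microglia, and SPPL2A is a protease that cuts within the membranes of lysosomes and late endosomes.

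The deleted microRNA is shown because the KO groups lack it and because its seed can be looked for in the 10 genes. A microRNA pairs with a messenger mainly through bases 2 to 8 from its 5′ end, the seed, which is in capitals in the RefSeq mature sequences (GRCm38.p6) printed here.
mmu-miR-34a-5p, chr4:150068473-150068494, plus strand: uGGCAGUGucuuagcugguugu
mmu-miR-34a-3p, chr4:150068517-150068537, plus strand: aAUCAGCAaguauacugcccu

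The 3′ untranslated regions (3′UTRs) of the 10 genes, taken as the longest annotated in GENCODE M21 (mm10), held matches to the seed of miR-34a-5p in 3 genes and to that of miR-34a-3p in 0 genes. An 8mer matches bases 2 to 8 and has an A opposite base 1, a 7mer-m8 matches bases 2 to 8 only, and a 7mer-A1 matches bases 2 to 7 with that A. Of 14758 tested genes with a 3′UTR, 23.5% held at least 1 such match to miR-34a-5p, 6.00% held an 8mer, and 15.7% held a match to miR-34a-3p. The 5 matched sites are shown with the match in capitals, written 5′ to 3′ on the messenger strand.
Sppl2a, 8mer in exon 15 of 15, chr2:126891956-126891963, minus strand: agtgccttccccagCACTGCCAatga
Sppl2a, 8mer in exon 15 of 15, chr2:126891887-126891894, minus strand: agtctctctaccctCACTGCCAattt
Abi3, 7mer-m8 in exon 8 of 8, chr11:95832675-95832681, minus strand: cctgcaccaaccctgCACTGCCtcgg
Abi3, 7mer-m8 in exon 8 of 8, chr11:95831553-95831559, minus strand: tctcagttcgaggggCACTGCCtgcc
Ptk2b, 7mer-A1 in exon 31 of 31, chr14:66153807-66153813, minus strand: gttcataggggtactACTGCCAgcca
A match is a match of letters alone, and binding at these sites was not measured.

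The 20 libraries held between 19549622 and 21066868 counts on genes, and all 10 genes passed the filter on low counts with 16107 genes tested. Thy1, whose promoter drives the transgene, ranged from 685 to 769 CPM without the transgene (10 mice) and from 1905 to 3318 CPM with it (10 mice). No value of miR-34a was analysed here. Markers of the hippocampal subfields summed to between 399 and 497 CPM in each mouse, while 10 choroid plexus markers ranged in sum from 265 to 709 CPM over the 5 mice of the KO Non-Tg group and from 300.4 to 6712 CPM over the other 15, so the libraries differed widely in choroid plexus RNA. A list of 12 microglia markers (among them Cx3cr1, P2ry12, Tmem119, Csf1r, Aif1 and C1qa) had a sum of 494 to 676 CPM (WT Non-Tg), 492 to 533 CPM (KO Non-Tg), 1138 to 1385 CPM (WT Tg-SwDI) and 1471 to 1869 CPM (KO Tg-SwDI), with no marker at 0. In bulk tissue, a change in the number of cells of a type and a change in RNA per cell cannot be told apart.

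Levels of different genes were set side by side per kilobase of exon. The length taken was every base in an annotated exon of any transcript, from 4117 (Bin1) to 15864 bases (Cd2ap). Which transcripts were present was not measured, so the order of the genes is approximate. On this scale Ptk2b was the most abundant of the 10 genes at a mean of 111 CPM per kb over the 20 mice. Bin1 followed at 62.8, Sorl1 at 34.1, Fermt2 at 19.8, Mef2c at 14.3, Picalm at 12.1, Sppl2a at 7.80, Abca7 at 2.99 and Cd2ap at 1.71 CPM per kb. Abi3 was the lowest at 0.676 CPM per kb, with 27 to 104 counts in a mouse. Exons of Zfp652 on the opposite strand cover 70.1% of its exonic bases, and how reads there were counted is not given. The effect of this on the rank of Abi3 was not tested. The ranges of neighbours in this order did not overlap over the 20 mice, except for Mef2c (10.8 to 16.8 CPM per kb) and Picalm (11.02 to 13.3 CPM per kb).

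**Figure D1:**
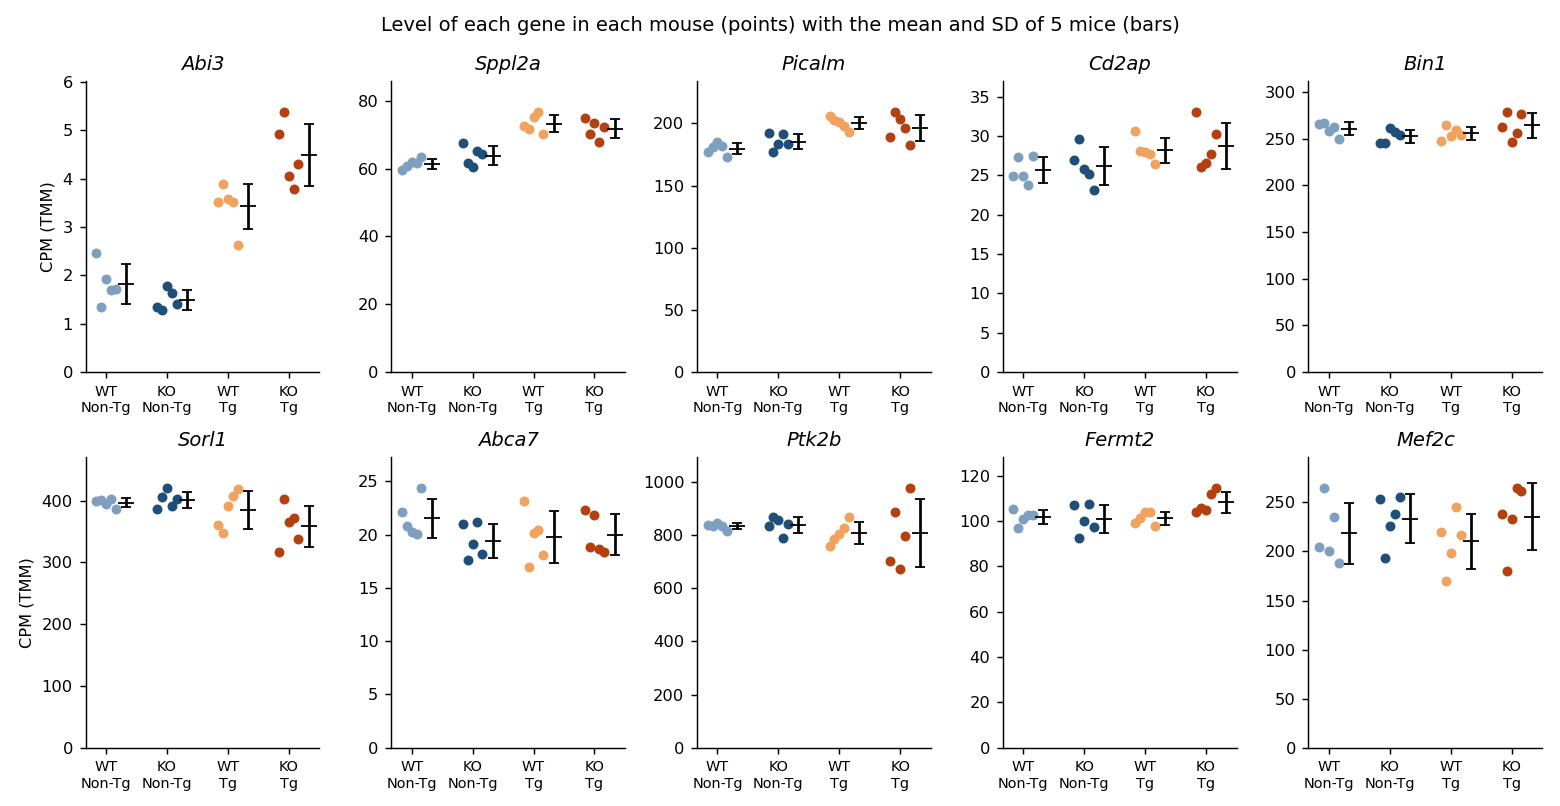
Level of each of the 10 genes in CPM (vertical axis, from 0) in each of the 5 mice of a group (points), with the mean and SD beside them (bars). For Abi3 and Sppl2a, all 10 Tg-SwDI mice lie above all 10 Non-Tg mice, while for the other 8 genes the Tg-SwDI and Non-Tg mice overlap.

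The Tg-SwDI groups were compared with the Non-Tg groups of the same miR-34a genotype to ask which of the genes change with the APP transgene. In WT mice, 3 of the 10 genes rose (Abi3, Sppl2a and Picalm) and 0 fell, beside 4.41% of all tested genes called and 3.94% called higher. In KO mice, Abi3 and Sppl2a rose and Sorl1 fell, beside 20.8% of all tested genes called, 12.5% higher and 8.31% lower. Over both miR-34a genotypes together, the average effect of the transgene was called for Abi3, Sppl2a and Picalm, all higher, beside 17.2% of all tested genes called and 11.3% called higher. The median log2 fold change of the 10 genes was -0.02 in WT and 0.07 in KO mice, beside 0.00 over all tested genes in both. The tests were edgeR's quasi-likelihood tests with Benjamini-Hochberg adjustment over 16107 genes, at an adjusted p under 0.05.

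**Figure D2:**
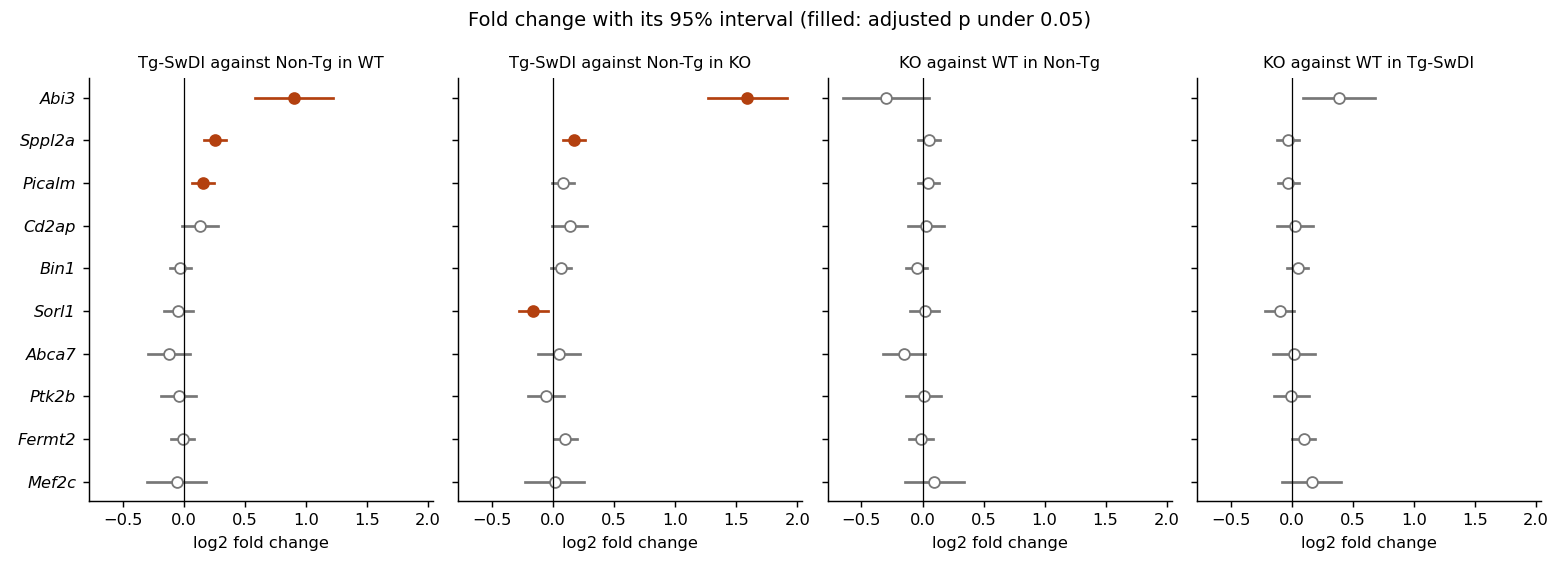
Log2 fold change (horizontal axis) of each gene in the 4 comparisons of 5 with 5 mice, with the 95% interval of the edgeR fit as a line; filled points are called at an adjusted p under 0.05. Abi3 stands farthest from 0 in both Tg-SwDI comparisons, at 0.90 and 1.59, and no point is filled in the comparisons of KO with WT.

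Abi3 (ENSMUSG00000018381, chr11:95830074-95842476, minus strand) encodes an adaptor of the WAVE complex, which nucleates branched actin, and in brain is expressed mainly in microglia. Its level was 2.46, 1.34, 1.93, 1.70 and 1.72 CPM in the 5 WT Non-Tg mice. It was 1.34, 1.28, 1.79, 1.63 and 1.40 CPM in KO Non-Tg mice. It was 3.52, 3.88, 3.58, 3.53 and 2.63 CPM in WT Tg-SwDI mice and 4.92, 5.37, 4.06, 3.79 and 4.29 CPM in KO Tg-SwDI mice. Every Tg-SwDI mouse lay above every Non-Tg mouse, and the lowest Tg-SwDI mouse was WT replicate 7. The group means were 1.83 ± 0.41 (WT Non-Tg), 1.49 ± 0.21 (KO Non-Tg), 3.43 ± 0.47 (WT Tg-SwDI) and 4.49 ± 0.65 CPM (KO Tg-SwDI; SD, n = 5 each). With the transgene, Abi3 rose by a log2 of 0.90 in WT mice (standard error 0.16, edgeR adjusted p = 0.000275), which is 86.9% with a 95% interval of 49.7 to 133%. In KO mice the rise was a log2 of 1.59 (standard error 0.16, edgeR adjusted p = 1.87e-08), which is 201% with a 95% interval of 141 to 277%. The rise in KO exceeded that in WT by a log2 of 0.69 (standard error 0.22), and this interaction did not pass the test over all genes (unadjusted p = 0.00482, edgeR adjusted p = 0.123).

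Abi3 moved together with the microglia markers over the mice. In Tg-SwDI against Non-Tg mice all 12 markers were called higher in both genotypes, with a median log2 fold change of 1.01 in WT and 1.57 in KO mice. Set against the microglia marker sum of the same mouse, Abi3 in CPM per 1000 CPM of markers was 3.23 ± 0.38 (WT Non-Tg), 2.91 ± 0.51 (KO Non-Tg), 2.66 ± 0.37 (WT Tg-SwDI) and 2.66 ± 0.28 (KO Tg-SwDI; SD, n = 5 each), and these ranges overlapped between all 4 groups. The 12 markers rose unequally, by a log2 of 0.40 to 1.63 in WT and 0.62 to 2.35 in KO mice. In KO mice C1qa averaged 50.1 CPM without and 256 CPM with the transgene, beside 53.7 and 128 CPM for Cx3cr1. The ratio therefore depends on which markers are summed, and Abi3 against single markers or another sum was not tested. In a fit that was added once the values were known, with the mean log2 CPM of the 12 markers entered as a covariate, the log2 fold change of Abi3 was -0.016 in WT mice (edgeR adjusted p = 0.994) and 0.24 in KO mice (edgeR adjusted p = 0.902). The marker sums of Tg-SwDI and Non-Tg mice did not overlap, so the transgene and the marker level cannot be told apart in that fit. The 3 tested genes whose centred log2 CPM ran closest to that of Abi3 over the 20 mice were Nckap1l, Hpgd and Ctsl, at a root mean square difference of 0.16 each, beside an SD of 0.68 for Abi3 itself. Nckap1l encodes the WAVE complex subunit of blood and immune cells, and Ctsl encodes the lysosomal protease cathepsin L.

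Annotated exons of Zfp652, Phospho1 and Gngt2 on the opposite strand cover 70.1%, 41.1% and 5.63% of the exonic bases of Abi3. The libraries were stranded, but the strand setting of the counting is not given in the sources used here, and without it reads from Abi3 and these genes cannot be told apart. Gngt2, which encodes a subunit of a heterotrimeric G protein, also rose with the transgene, by a log2 of 1.14 in WT (standard error 0.18, edgeR adjusted p = 5.73e-05) and 1.49 in KO mice (standard error 0.18, edgeR adjusted p = 4.68e-07). Zfp652 was far above Abi3, at 47.3 to 54.3 CPM in the group means, with log2 fold changes of 0.14 in WT (edgeR adjusted p = 0.200) and 0.20 in KO mice (edgeR adjusted p = 0.0120). Phospho1 was at 2.09 to 2.30 CPM in the group means, with log2 fold changes of -0.14 and 0.02 and edgeR adjusted p-values of 0.761 and 0.944.

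**Figure D3:**
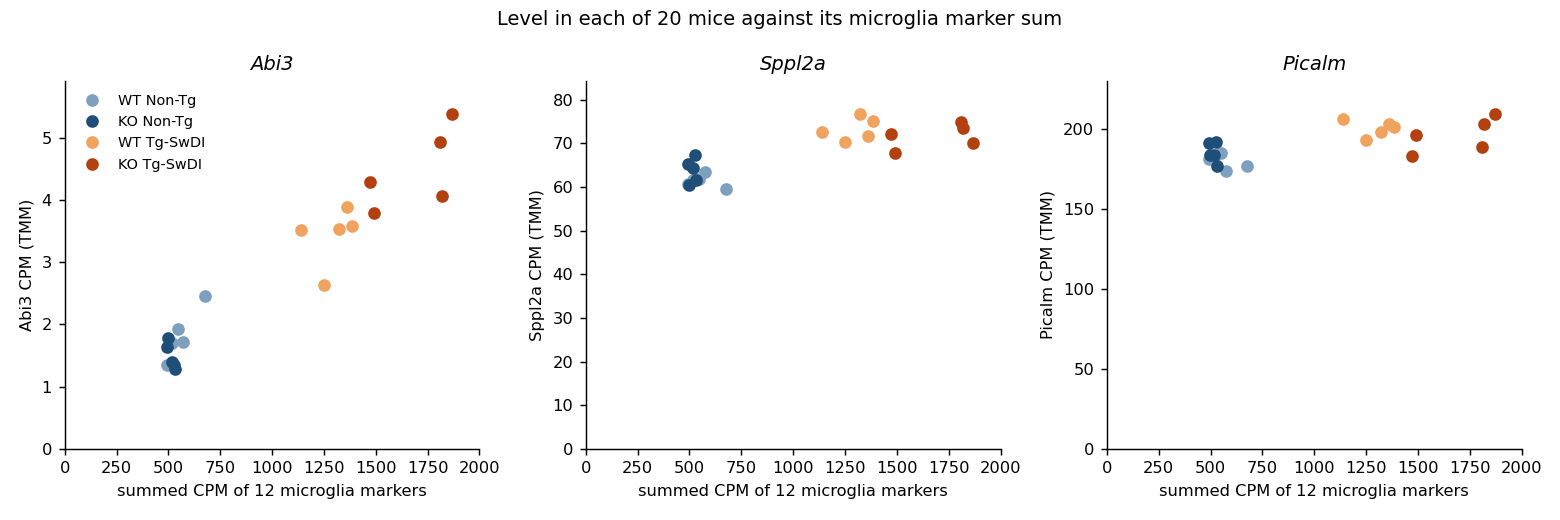
Level of Abi3, Sppl2a and Picalm in CPM (vertical axes, from 0) against the summed CPM of 12 microglia markers (horizontal axes) in each of the 20 mice, coloured by group. The marker sums of Non-Tg mice end at 676 CPM and those of Tg-SwDI mice begin at 1138 CPM; Abi3 averages 4.49 CPM in KO Tg-SwDI and 3.43 CPM in WT Tg-SwDI mice, while Sppl2a and Picalm are at about the same level in both.

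Sppl2a (ENSMUSG00000027366, chr2:126890391-126933235, minus strand) encodes the signal peptide peptidase that removes the membrane-bound remnant of CD74 and cuts other membrane stubs. Its level was 59.5, 60.7, 61.9, 61.6 and 63.3 CPM in WT Non-Tg mice. In KO Non-Tg mice it was 67.4, 61.5, 60.5, 65.2 and 64.3 CPM. In WT Tg-SwDI mice it was 72.6, 71.8, 75.2, 76.6 and 70.3 CPM, and in KO Tg-SwDI mice 75.0, 70.1, 73.5, 67.9 and 72.1 CPM. The 10 Tg-SwDI mice again lay above the 10 Non-Tg mice, with KO Tg-SwDI replicate 5 and KO Non-Tg replicate 1 nearest to each other. Sppl2a rose by 19.3% in WT mice (95% interval 12.2 to 26.9%, log2 fold change 0.25, edgeR adjusted p = 0.000238). It rose by 12.4% in KO mice (95% interval 5.67 to 19.6%, log2 fold change 0.17, edgeR adjusted p = 0.00681). The effects in the 2 genotypes differed by a log2 of -0.09 (standard error 0.06, edgeR adjusted p = 0.479). In KO mice the log2 fold change of Sppl2a was 0.15 with choroid plexus markers as a covariate (edgeR adjusted p = 0.0821), 0.13 with library size alone in place of TMM (edgeR adjusted p = 0.0554) and 0.30 with the GC and length trend removed (edgeR adjusted p = 1.26e-05). The microglia covariate left a log2 fold change of 0.18 in WT (edgeR adjusted p = 0.690) and 0.05 in KO mice (edgeR adjusted p = 0.930). The genes nearest to Sppl2a over the 20 mice were Gng12, Chmp1b and Mbnl1, at root mean square differences of 0.06, 0.06 and 0.07 in centred log2 CPM beside an SD of 0.12 for Sppl2a.

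Picalm (ENSMUSG00000039361, chr7:90130213-90213465, plus strand) encodes a clathrin assembly protein. It was at 177, 181, 185, 182 and 173 CPM in WT Non-Tg mice and at 206, 203, 201, 198 and 193 CPM in WT Tg-SwDI mice, with no overlap. In KO mice it was at 192, 177, 183, 191 and 184 CPM without and 189, 209, 203, 196 and 183 CPM with the transgene, and these groups overlapped. Picalm rose by 11.6% in WT mice (95% interval 5.04 to 18.5%, edgeR adjusted p = 0.0260). In KO mice the difference was 5.73% (95% interval -0.44 to 12.3%, edgeR adjusted p = 0.184). These effects differed by a log2 of -0.08 (standard error 0.06, edgeR adjusted p = 0.516), so a difference between genotypes was not shown. With the GC and length trend removed, Picalm was called in KO mice (0.24, edgeR adjusted p = 0.000182) and not in WT mice (0.13, edgeR adjusted p = 0.0911). The call in WT mice was among the less stable: it was lost without WT Non-Tg replicate 3, 6 or 7 or WT Tg-SwDI replicate 3, 4 or 5, with edgeR adjusted p-values up to 0.0663, and without the filter on low counts (0.115). The call held in 20 of 31 settings other than the replicate block, with a direction above 0 in all 31. Over these settings the adjusted p from edgeR or DESeq2 reached 0.838. The average effect over both genotypes was a rise of 8.60% (95% interval 4.08 to 13.3%, edgeR adjusted p = 0.00590). Nek7, Rnf13 and 1810030O07Rik ran nearest to Picalm, at differences of 0.05, 0.05 and 0.06 beside an SD of 0.08 for Picalm.

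Bin1 and Cd2ap, the other members of the endocytic group, did not pass the test. Bin1 (ENSMUSG00000024381, chr18:32377230-32435737, plus strand), which encodes a membrane-curving BAR protein, was at 261 ± 6.79, 253 ± 7.10, 256 ± 6.64 and 265 ± 13.5 CPM in WT Non-Tg, KO Non-Tg, WT Tg-SwDI and KO Tg-SwDI mice (SD, n = 5 each). The transgene went with -1.97% in WT (95% interval -7.61 to 4.02%) and 4.59% in KO mice (95% interval -1.43 to 10.98%). Cd2ap (ENSMUSG00000061665, chr17:42792951-42876665, minus strand), which encodes a scaffold between receptors and actin, was at 25.7 ± 1.66, 26.2 ± 2.40, 28.2 ± 1.56 and 28.7 ± 2.92 CPM in the same order. Its difference was 9.90% in WT and 9.74% in KO mice, and the average over both was 9.82% (95% interval 2.19 to 18.02%, edgeR adjusted p = 0.0660). This average was called in 7 of 29 settings other than the replicate block, with a direction above 0 in all 29. With the GC and length trend removed, Cd2ap was called in KO mice at a log2 of 0.34 (edgeR adjusted p = 0.00267).

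Sorl1 (ENSMUSG00000049313, chr9:41964720-42124297, minus strand) encodes the sorting receptor that carries APP with retromer. It was at 399, 402, 394, 403 and 386 CPM in the WT Non-Tg group and at 387, 406, 421, 391 and 403 CPM for KO Non-Tg. The Tg-SwDI mice were more spread out, at 360, 348, 391, 407 and 419 CPM in WT and 316, 403, 366, 372 and 338 CPM in KO. KO Tg-SwDI replicate 2 lay within the KO Non-Tg range and the other 4 lay below it. Sorl1 fell in KO mice by a log2 of 0.16 (standard error 0.06, edgeR adjusted p = 0.0466), a change of -10.6% with a 95% interval of -17.6 to -2.96%. In WT mice the change was -3.02% (95% interval -10.6 to 5.24%, edgeR adjusted p = 0.793), and the difference between these effects was a log2 of -0.12 (standard error 0.08, edgeR adjusted p = 0.461). The call sat at the threshold: it held in 7 of 31 settings other than the replicate block, with a direction below 0 in all 31, and the edgeR adjusted p was 0.445 with the choroid plexus covariate, 0.247 with the GC and length trend removed and 0.140 without KO Tg-SwDI replicate 1. With the transgene in KO mice the summed choroid plexus markers differed 8.72-fold (exact two-sided permutation p = 0.0238, 0.106 after Benjamini-Hochberg adjustment over 40 marker comparisons), the microglia markers 3.30-fold, the astrocyte markers 1.39-fold, the oligodendrocyte markers 1.20-fold (each 0.0454 after the same adjustment) and the neuron markers 0.944-fold (0.434). A sum of 4 striatum markers differed 1.40-fold (exact two-sided permutation test, 0.0454 after the same adjustment). It was 57.1 to 65.1 CPM in KO Non-Tg and 66.9 to 96.4 CPM in KO Tg-SwDI mice. With the microglia covariate the log2 fold change of Sorl1 was -0.27 (edgeR adjusted p = 0.689), and the part of the astrocyte, oligodendrocyte, neuron and striatum markers was not tested. The genes nearest to Sorl1 over the mice were Dnajc16 and Synrg, at root mean square differences of 0.04 each beside an SD of 0.11 for Sorl1.

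Abca7, Ptk2b, Mef2c and Fermt2 did not pass the test in either genotype. Abca7 (ENSMUSG00000035722, chr10:79996494-80015572, plus strand), the lipid transporter, was at 21.5 ± 1.80, 19.4 ± 1.63, 19.8 ± 2.41 and 20.01 ± 1.91 CPM in WT Non-Tg, KO Non-Tg, WT Tg-SwDI and KO Tg-SwDI mice, with transgene differences of -8.15% in WT (95% interval -18.5 to 3.47%) and 3.26% in KO mice (95% interval -8.41 to 16.4%). Ptk2b (ENSMUSG00000059456, chr14:66153257-66281052, minus strand), which encodes a calcium-regulated kinase of neurons related to focal adhesion kinase, was at 832 ± 10.98, 837 ± 29.9, 808 ± 40.5 and 806 ± 127 CPM. The KO Tg-SwDI mice spread widely for Ptk2b, from 670.5 to 976 CPM, around a KO Non-Tg range of 790 to 867 CPM, and the difference was -3.78% (95% interval -13.1 to 6.48%). Mef2c (ENSMUSG00000005583, chr13:83504034-83667080, plus strand) varied in every group, from 170 to 265 CPM over the 20 mice, and differed by -3.82% in WT (95% interval -18.7 to 13.8%) and 0.87% in KO mice (95% interval -14.7 to 19.3%). Fermt2 (ENSMUSG00000037712, chr14:45458795-45530118, minus strand), the integrin activator, differed by -0.52% in WT (95% interval -6.85 to 6.24%) and 7.26% in KO mice (95% interval 0.43 to 14.5%, unadjusted p = 0.0377, edgeR adjusted p = 0.122). Without overlap between the 5 and 5 mice were 3 of the 10 genes in WT mice (Abi3, Sppl2a and Picalm), beside 6.69% of all tested genes, and 2 in KO mice (Abi3 and Sppl2a), beside 12.8%.

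The KO groups were compared with the WT groups of the same transgene state to ask whether loss of miR-34a changes these genes. In Tg-SwDI mice 0 of the 10 genes were called by edgeR's quasi-likelihood test (2 at an unadjusted p under 0.05, 0 by DESeq2 and 0 by edgeR's exactTest), beside 1.99% of all tested genes. In Non-Tg mice 0 were called (0 at an unadjusted p under 0.05, 0 by DESeq2 and 0 by the exactTest), beside 0% of all tested genes by the quasi-likelihood test; over all genes DESeq2 called 7 and the exactTest 122 in this comparison. The interaction of transgene and miR-34a was called for 0 of the 10 by edgeR (1 at an unadjusted p under 0.05, Abi3, and 0 by DESeq2), beside 0.608% of all tested genes. The average KO effect was called for 0 of the 10 by edgeR (0 at an unadjusted p under 0.05 and 0 by DESeq2), beside 0.0807% of all tested genes.

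The 2 genes at an unadjusted p under 0.05 in Tg-SwDI mice were Abi3 and Fermt2. Abi3 differed by 30.9% between KO and WT Tg-SwDI mice, KO being above (95% interval 6.72 to 60.6%, edgeR adjusted p = 0.139), with KO replicate 5 below WT replicate 4, while in Non-Tg mice the difference was -18.7% (95% interval -36.2 to 3.62%, edgeR adjusted p = 0.692). The microglia marker sum had a ratio of 1.31 between KO and WT Tg-SwDI mice (exact two-sided permutation p = 0.00794, the smallest that 5 against 5 mice can give, 0.0454 after Benjamini-Hochberg adjustment over 40 marker comparisons), and 4 of its 12 genes were called higher. The log2 fold changes of the 12 genes ranged from 0.16 to 0.56. One of them, Csf1r, is described by the authors as a target of miR-34a. Csf1r averaged 187 CPM in WT and 276 CPM in KO Tg-SwDI mice, beside 105 and 128 CPM for Cx3cr1. A marker sum or covariate without Csf1r was not tested. With the microglia covariate the difference of Abi3 was a log2 of 0.08 (edgeR adjusted p = 0.868). The marker sums did not overlap here either, at 1138 to 1385 CPM in WT and 1471 to 1869 CPM in KO Tg-SwDI mice. The miR-34a genotype and the marker level therefore cannot be told apart among the Tg-SwDI mice in that fit. Fermt2 was at 99.0, 101, 104, 104 and 97.6 CPM in WT Tg-SwDI and 104, 106, 105, 112 and 115 CPM in KO Tg-SwDI mice, without overlap, as were 3.16% of all tested genes in this comparison and 2.23% in Non-Tg mice. The gap was narrow, between 103.97 CPM in WT replicate 5 and 104.10 CPM in KO replicate 1. The difference of Fermt2 was 6.95% (95% interval 0.14 to 14.2%, edgeR adjusted p = 0.255), and in Non-Tg mice -0.81% (95% interval -7.12 to 5.93%).

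Beside the seed matches, Sppl2a, which holds the pair of 8mers, differed by -2.12% between KO and WT in Tg-SwDI mice (95% interval -7.98 to 4.11%) and by 3.88% in Non-Tg mice (95% interval -2.38 to 10.5%). With the GC and length trend removed these differences turned to log2 values of 0.06 and -0.02, neither called by edgeR. Abi3, with its pair of 7mer-m8 sites, differed by 30.9% and -18.7% in these comparisons, neither called by edgeR. Ptk2b, with its single 7mer-A1, differed by -0.27% (95% interval -9.88 to 10.4%) and 0.60% (95% interval -9.10 to 11.3%) in the same comparisons. The 6 genes other than Fermt2 without a match to the miR-34a-5p seed differed by -6.74% (Sorl1) to 12.02% (Mef2c) in Tg-SwDI and by -9.89% (Abca7) to 6.82% (Mef2c) in Non-Tg mice.

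The genes that work with these 10 were counted from 8 lists of 112 genes, of which 108 were tested. With the transgene, 16 of the 108 rose and 2 fell in WT mice, and 28 rose and 10 fell in KO mice, with median log2 fold changes of 0.03 and 0.01. The share of all tested genes called was 4.41% in WT and 20.8% in KO mice, and the counts of each list, most of them small, are to be read against these shares. In KO against WT Tg-SwDI mice 2 rose and 1 fell, beside 1.99% of all tested genes called, and in Non-Tg mice 0 were called, beside 0%.

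Of 21 genes of clathrin endocytosis around Bin1, Picalm and Cd2ap, 0 rose and 1 fell in WT (the adaptor subunit Ap2a1, log2 fold change -0.17, edgeR adjusted p = 0.0419), and 3 rose and 2 fell in KO mice. Those with the lowest adjusted p in KO were Clta (clathrin light chain A) at a log2 of 0.21, the dynamin Dnm2 at 0.26 and the CD2AP relative Sh3kbp1 at 0.27. Of 17 genes of retromer and VPS10 sorting around Sorl1, 1 rose in WT (the sorting nexin Snx5, 0.25, edgeR adjusted p = 0.00331), and in KO mice Snx5 rose (0.29) and the Sorl1 relative Sorcs3 fell (-0.29, edgeR adjusted p = 0.00353). No core retromer subunit (Vps35, Vps26a, Vps26b or Vps29) was called in either.

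Of 9 transporters of subfamily A around Abca7, 2 rose in WT mice, Abca9 by a log2 of 0.77 and the cholesterol exporter Abca1 by 0.47 (edgeR adjusted p = 0.000145 and 0.00592). In KO mice 3 rose and Abca5 fell by a log2 of 0.19 (edgeR adjusted p = 0.0162); Abca5 also fell between WT and KO Tg-SwDI mice (-0.25, edgeR adjusted p = 0.0229). One of those that rose in KO mice was Abca4, with 2.03 to 4.93 CPM over the KO Non-Tg group and up to 29.3 CPM in a WT Non-Tg mouse; KO Non-Tg mice were also the group with the lowest range of choroid plexus markers, and the part of those in the rise of Abca4 was not tested.

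Of 10 WAVE complex genes around Abi3, 3 rose in WT mice: Nckap1l by a log2 of 1.04 (edgeR adjusted p = 2.04e-08), Cyfip1 by 0.21 and Wasf2 by 0.29. The same 3 rose in KO mice, by 1.45, 0.19 and 0.60, and Nckap1 fell by 0.19 there, the subunit that takes the place of Nckap1l in most other tissues. Of 14 genes of focal adhesion and integrin activation around Ptk2b and Fermt2, 3 rose in WT mice, the leukocyte integrin Itgb2 by a log2 of 1.40, the blood-cell kindlin Fermt3 by 0.92 (edgeR adjusted p = 2.82e-07 and 3.59e-06) and Lims1 by 0.23. In KO mice 6 rose and 1 fell, led by Itgb2 at 2.07, Fermt3 at 1.26 and the talin Tln1 at 0.56. Fermt3 thus rose in both genotypes, while its relative Fermt2 was called in neither.

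Of 6 tested genes of the Mef2 list, the deacetylase Hdac9 fell in both genotypes (-0.32 in WT and -0.20 in KO mice, edgeR adjusted p = 0.00324 and 0.0365) and 0 rose. Of 7 tested peptidases and SPPL2A substrates, the substrates Clec7a and Cd74 rose in WT mice by a log2 of 3.82 and 2.49 (edgeR adjusted p = 1.31e-08 and 0.000516) and in KO mice by 5.96 and 4.02, while Itm2b rose by 0.17 and the peptidase Sppl3 fell by 0.21 in KO mice. Of 24 tested genes at other human Alzheimer's disease risk loci, 5 rose in WT mice and 9 rose and 2 fell in KO mice. Grn (progranulin) rose by a log2 of 0.82 in WT and 1.45 in KO mice, the lysosomal protease Ctsh by 1.04 and 1.77, and the myeloid transcription factor Spi1 by 0.91 in WT mice (edgeR adjusted p = 0.000330). Grn also rose between WT and KO Tg-SwDI mice (0.53, edgeR adjusted p = 0.000121), as was Tspan14 (0.22, edgeR adjusted p = 0.0346). Clec7a, Grn and Clu were the 3 list genes called in the interaction by edgeR, at log2 values of 2.14, 0.63 and 0.37. Without the transgene Clec7a was low, at 0.79 to 3.83 CPM in WT and 0.43 to 0.85 CPM in KO mice. Its lowest count in a mouse was 9, which limits the precision of its fold changes.

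**Figure D4:**
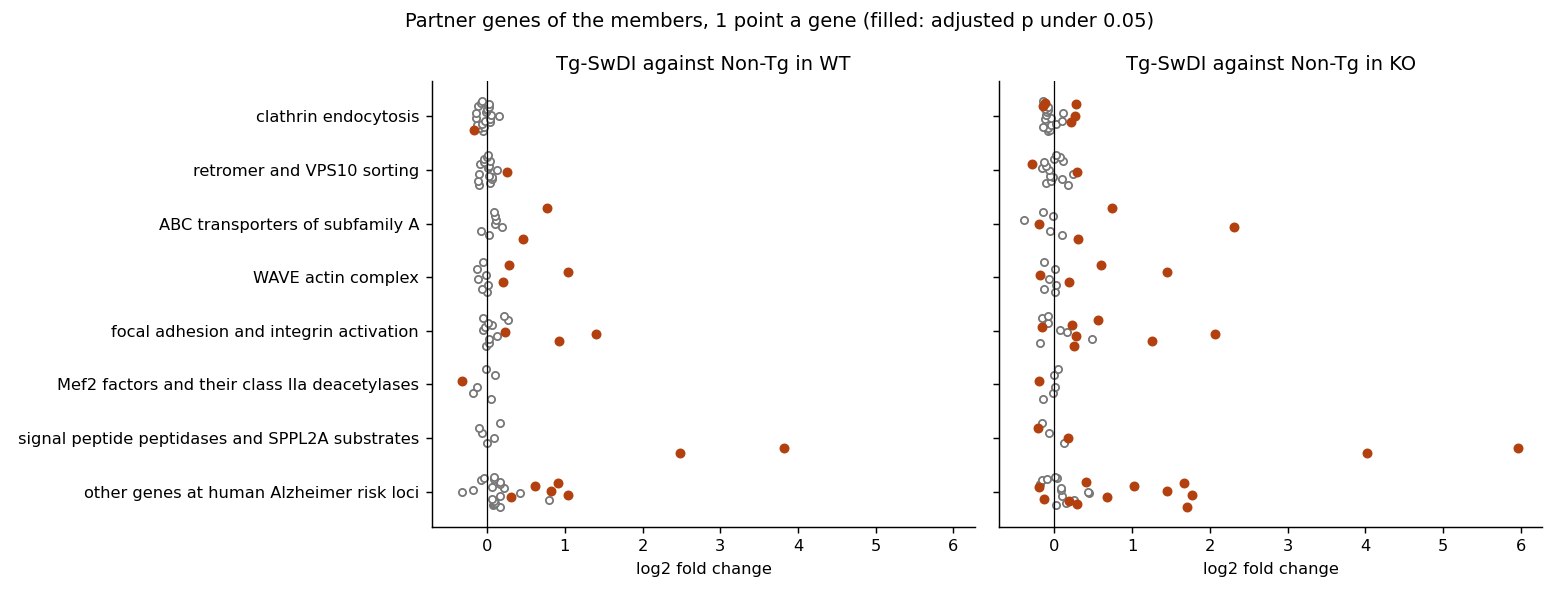
Log2 fold change with the transgene (horizontal axis) of each tested gene of the 8 lists, 1 point a gene, in WT (left) and KO (right) mice; filled points are called by edgeR at an adjusted p under 0.05. Most points lie near 0 (medians over the 108 genes of 0.03 and 0.01), and Clec7a lies farthest to the right at 3.82 and 5.96. The mean of Clec7a without the transgene was 1.78 CPM in WT and 0.61 CPM in KO mice.

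**Figure D5:**
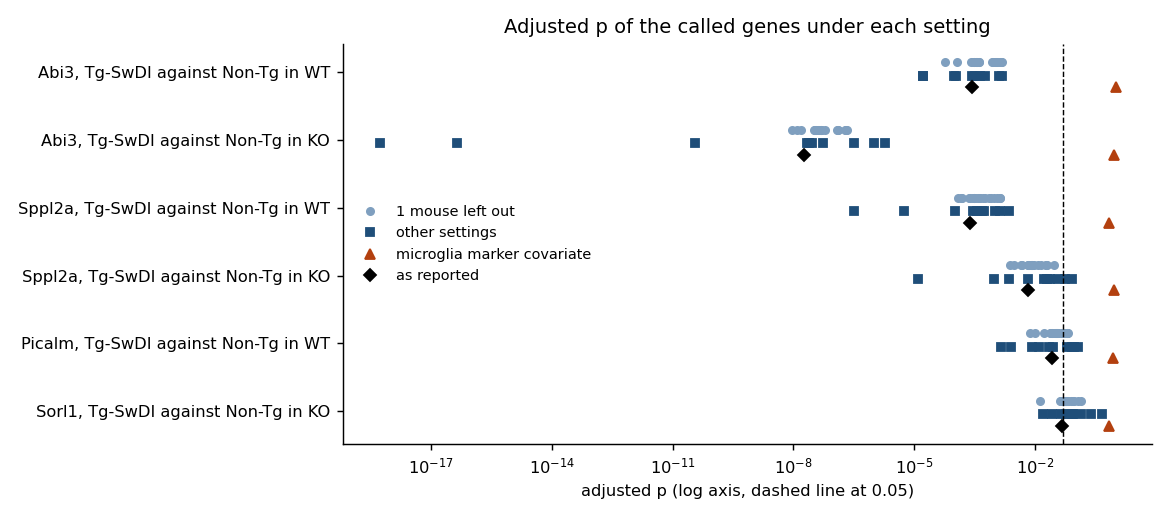
Adjusted p (horizontal log axis, dashed line at 0.05) of the 6 called pairs of gene and comparison under each setting: circles leave out 1 mouse, squares are other tools, scalings, filters and covariates, triangles use the microglia marker covariate and diamonds are the values as reported. Leaving the replicate block aside, Abi3 stays left of the line in 30 of 31 settings in both genotypes, and Sorl1 in 7 of 31.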

How the data were processed

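The authors aligned reads of stranded, poly(A)-selected libraries to mm10 with STAR and deposited raw read counts per ENSEMBL gene from featureCounts, with no normalization. Tool versions, strand setting and how reads with several matches were counted are not given in the sources used here. Groups came from the labels. Littermates were used, but no label says which mice shared a litter. Symbols came from GENCODE M21 (38872 of 39056 identifiers matched). In edgeR 4.0.16 (R 4.3.3, limma 3.58.1), counts were scaled by TMM and filtered by filterByExpr (minimum count 10, minimum total 15), and 1 robust quasi-likelihood model of the 4 group means was fitted with 16 residual degrees of freedom. Log2 CPM used a prior count of 2. DESeq2 1.42.0 was an alternative, and Python 3.11.15 searched sequences. The fit was tested on simulated data. Library totals (19549622 to 21066868 counts) limit precision mainly for Abi3. P-values set each difference against the spread between these mice. Partners were named by rule: at most the 3 called genes of lowest adjusted p per list and comparison, plus the 3 genes nearest to each called member, of which 1 is not reported here. Abca4, the core retromer subunits, Abca5, Nckap1, Sppl3 and Itm2b and the exon-overlapping genes were named after their values were seen. The members, lists and tests were chosen with earlier results of these data known. The settings tried were DESeq2, edgeR's exactTest, RLE factors, library size alone, 2 other filters, the compared mice alone, the replicate block, choroid plexus and microglia covariates, leaving out the library highest in choroid plexus RNA of each Non-Tg group, removal of GC and length trends, and each mouse left out.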

Additional observations from a re-analysis of the deposited data

Results flagged for a closer look

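In 40 groups of 5 mice (10 genes in 4 groups), 1 mouse stood apart from the others of its group by more than Dixon's 95% limit, and chance flags about 1 in 20 groups. It was WT Tg-SwDI replicate 7, with 2.63 CPM of Abi3 beside 3.52 to 3.88 CPM in the other 4 mice. Without it, the log2 fold change of Abi3 with the transgene in WT mice was 0.98 (edgeR adjusted p = 0.000113), and that of Abi3 in KO against WT Tg-SwDI mice was 0.31 (edgeR adjusted p = 0.307).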

How the results depend on the processing

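The count of the 10 genes called moved by over 1.5 times in few settings. With the microglia marker covariate, chosen after seeing the data, 0 were called in Tg-SwDI against Non-Tg mice in WT, in KO and on average, and the log2 fold change of Abi3 in WT turned to -0.016. With the choroid plexus covariate, 1 was called in KO mice (Abi3). Leaving out each mouse gave 2 to 3 called genes in WT, 2 to 3 in KO and 3 to 5 for the average effect (5 without KO Tg-SwDI replicate 2, which added Cd2ap and Sorl1), and 0 in the comparisons of KO with WT and the interaction. With the replicate number as a block, 2 genes were called in WT, 2 in KO and 3 on average, and the edgeR adjusted p was 0.0986 for Picalm in WT and 0.0699 for Sorl1 in KO mice. Same-numbered mice of different groups correlated at a median r of -0.04 in their deviations (-0.40 to 0.15, 16 pairs). Mice with other numbers correlated at a median r of 0.01 (-0.37 to 0.50, 134 pairs). These values show no pairing by number, and a shared litter or batch was not tested. Of 2180 values of single genes under an alternative, 1990 kept direction and side of the threshold, 45 lost the call, 13 gained one, 131 turned sign with no call in either fit and 1 called value turned sign. Outside the replicate block, the log2 fold change of Mef2c with the transgene reached 0.93 in WT and 1.44 in KO mice. That of Ptk2b reached 0.25 and 0.36, and neither gene was called in any of these settings. Leaving out single mice took Mef2c to at most 0.02 in WT and 0.11 in KO mice. Over all genes, KO against WT in Tg-SwDI mice gave 320 calls, beside 678 with DESeq2, 561 with the choroid plexus covariate, 187 with the GC and length trend removed, 58 from the 10 compared mice alone and 8 with the replicate block. KO against WT in Non-Tg mice gave 0, beside 7 with DESeq2 and 122 with the exactTest, and the average KO effect 13, beside 50 with DESeq2. The interaction gave 98, beside 431 with DESeq2, 38 with the block and 18 with the choroid plexus covariate. Tg-SwDI against Non-Tg in KO gave 3351, beside 1226 once choroid plexus markers were a covariate and 14 for microglia markers. With library size alone, Tg-SwDI against Non-Tg in KO split into 1675 higher and 1792 lower, beside 2013 and 1338 with TMM. The cause of these differences was not tested. Counts of 27 to 104 limit the precision of Abi3.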
